A study of Bos taurus with 15 samples.

Results

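WNT ligands, their Frizzled receptors and the secreted proteins that strengthen or block them were profiled in cells of the digestive system of Holstein dairy cattle. The members were all genes in the deposited gene list whose symbol is WNT, FZD, RSPO, SFRP or DKK followed by a digit, which gave 41 of 27270 genes: 19 WNT, 10 FZD, 4 RSPO, 4 SFRP and 4 DKK genes. The rule used symbols alone and was set with earlier results of these data known. The data were 15 single-cell RNA-seq libraries (10x Genomics, 3′ end reads) of 1 tissue each. The 11 newborn (NB) libraries covered the stomach (reticulum, omasum and abomasum), the small intestine (duodenum, jejunum and ileum), the large intestine (cecum, colon and rectum), salivary gland and liver, and the 4 adult (AD) libraries covered duodenum, jejunum, cecum and colon. The study asked how cells of the digestive tract differ between tissues and between newborn and adult animals.

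Several features limit the groups as models. All 4 AD libraries were made from 1 lactating cow, the NB tissues came from 3 calves, and which calf gave which NB library is not given in the sources used here. The outer muscle layers of the gut had been removed in both stages. NB gut tissue was first treated with EDTA and trypsin, then digested with a lamina propria kit (intestine) or a mixture of enzymes (stomach compartments). NB liver and salivary gland were each digested with other enzymes, without this first step. AD tissue had no such first step, the duodenum and cecum going into a lamina propria kit and the jejunum and colon into a multi-tissue kit. Stage, animal and dissociation therefore cannot be told apart. Differences between the NB stomach, intestine, salivary gland and liver likewise cannot be told apart from dissociation, and the calf may differ too. With 1 library per tissue and stage no test between stages was possible. All intervals below are exact Poisson 95% intervals of UMI counts, where a UMI is 1 counted molecule, and cover counting error only.

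WNT proteins are secreted lipid-modified ligands that bind Frizzled (FZD) receptors together with the co-receptors LRP5 or LRP6, and in the canonical branch stabilise β-catenin. R-spondins (RSPO) bind LGR receptors and keep Frizzled receptors on the cell surface, while secreted Frizzled-related proteins (SFRP) and most Dickkopf proteins (DKK) hold the signal back by binding ligands or co-receptors. In the intestine these signals maintain the stem cells at the base of the crypts, and mesenchymal cells around the crypts are a known source of several ligands and R-spondins.

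Members were read in 4 groups of barcodes per library, each with at least 1 UMI of its own marker and none of the other lineage markers: epithelial (*EPCAM* or *KRT14*), stromal (*COL1A2*), endothelial (*PECAM1*) and leukocyte (*PTPRC*). Of the 60 groups, 50 held at least 50 barcodes and were used. The UMIs of a group were summed and given per 1000000 UMIs of that group (CPM). CPM values of 3′ end counts were compared for 1 gene between groups, not between genes. Library depth ranged from 17707625 to 129458578 UMIs with a median of 82195756, and 119798 of 172405 barcodes passed the filters. Transcripts of markers were also found outside their lineage. *COL3A1* reached at most 0.609% of its stromal level elsewhere and *CDH5* at most 2.65% of its endothelial level. The T cell gene *CD3E* reached up to 18.1% of its leukocyte level in endothelial, 16.9% in epithelial and 13.7% in stromal barcodes, and the keratin *KRT8* up to 8.65% of its epithelial level in stromal barcodes. The plasma cell transcript *JCHAIN* measured 8498, 1415 and 4102 CPM in AD jejunal, cecal and colon epithelium, and 1556 CPM in NB cecal stroma. Sets of barcodes below that use *JCHAIN* can therefore hold other cells. In the reticulum and omasum the keratin *KRT5* stood in stromal barcodes at 13.1% and 7.06% and in endothelial barcodes at 4.20% to 4.38% of its epithelial level.

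3 of the endothelial groups went against their label. *CDH5*, which encodes the adhesion protein of endothelial junctions, measured 0.836 CPM in the *PECAM1* barcodes of the AD duodenum and 0 in those of the AD jejunum, against 306 CPM in the AD colon. Only 5 and 1 of the 7 endothelial marker genes were above 0 in the AD duodenum and jejunum, and the summed leukocyte markers of these groups (512 and 1019 CPM) exceeded the endothelial ones (6.69 and 3.11 CPM). The NB liver *PECAM1* barcodes held both lineages, with 1096 CPM of endothelial and 2715 CPM of leukocyte markers. Values of these groups are therefore given under their marker name, and calls that change without them are named. In the epithelial barcodes of the NB duodenum, jejunum and liver the summed hepatocyte markers (6585, 16558 and 47875 CPM), which include the apolipoprotein gene *APOA1* that enterocytes also express, were higher than the epithelial marker sum.

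Of the 41 members, 23 reached 10 CPM with at least 10 UMIs in at least 1 group and are described below: *WNT2B*, *WNT3A*, *WNT4*, *WNT5A*, *WNT5B*, *WNT6*, *WNT7B*, *WNT10A*, *WNT11*, *FZD1*, *FZD2*, *FZD3*, *FZD4*, *FZD6*, *FZD10*, *RSPO3*, all 4 SFRP genes, *DKK1*, *DKK2* and *DKK3*. The other 18 were low or absent. *WNT1*, *RSPO4* and *DKK4* had no UMI in the 119798 kept barcodes. *WNT2*, *WNT3*, *WNT7A*, *WNT8A*, *WNT8B*, *WNT9A*, *WNT9B*, *WNT10B*, *WNT16*, *FZD5*, *FZD7*, *FZD8*, *FZD9*, *RSPO1* and *RSPO2* had between 1 and 249 UMIs each, the most being those of *RSPO1* (249) and *WNT2* (225). Most of these values were too low for comparison, and *WNT2* is described in the endothelium. *RSPO1* was highest in the stroma of the AD colon, at 9.49 CPM (4.55 to 17.5).

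By their medians over NB tissues, 12 members led in the stroma. A gene was called leading in a lineage when its median CPM over the libraries was at least 10 and at least 2-fold above that of every other lineage, with 5 CPM added to both values. Of 14 members that could be compared, 12 led in stromal barcodes (*WNT2B*, *WNT5A*, *WNT5B*, *FZD1*, *FZD2*, *RSPO3*, *SFRP1*, *SFRP2*, *SFRP4*, *SFRP5*, *DKK2* and *DKK3*), where 7.70% of the 9291 genes compared did. *FZD6* led in endothelial barcodes, as did 4.95% of all genes. No member led in epithelial barcodes (4.07% of all genes) or in leukocytes (5.52%). The 12 stromal members reached 10 CPM through their stromal median alone, so that the minimum level shaped this count. The other 9 of the 23 members, among them *WNT3A*, *WNT7B*, *WNT10A* and *WNT11* with their epithelial levels in single tissues, had medians below 10 CPM in each lineage and were not compared. The same rule was applied to single libraries, with at least 10 UMIs required. In stromal barcodes 3 of 12 members compared led in the reticulum (7.59% of all genes did), 5 of 13 in the omasum (12.9%), 11 of 14 in the abomasum (8.41%), 12 of 16 in the duodenum (8.30%), 9 of 14 in the jejunum (7.99%) and 11 of 16 in the ileum (8.42%). In the cecum it was 11 of 15 (7.10%), in the colon 10 of 12 (8.94%), in the rectum 13 of 16 (7.95%) and in the salivary gland 9 of 9 (17.0%), where stroma could be compared with leukocytes alone. The 10-UMI minimum weighed most in the stroma of the reticulum and omasum, which held 208707 and 407258 UMIs in all, and the 7 and 6 UMIs of *WNT2B* there could not be called. The omasal count took in *DKK1*, all of whose UMIs there came from 1 barcode. Counts of leads were therefore not compared between libraries. In AD cattle the colon was the 1 library with enough stromal barcodes. By medians over AD libraries, 11 members reached 10 CPM, in stroma alone. All 11 led there, beside 15.5% of 9818 genes, and none in epithelial (8.93%), *PECAM1* (1.17%) or leukocyte (5.90%) barcodes. Single AD groups outside stroma did reach 10 CPM, such as jejunal leukocytes for *DKK1* (27.8 CPM). For *FZD4* the colon *PECAM1* barcodes and the colon stroma both had 19.0 CPM. The AD stromal leads were *WNT2B*, *WNT4*, *WNT5A*, *WNT5B*, *FZD1*, *FZD2*, *FZD4*, *SFRP1*, *SFRP4*, *SFRP5* and *DKK3*, of which 10 also led with at least 10 UMIs in the colon library alone (11.8%). When the AD duodenum and jejunum *PECAM1* groups were left out, the AD lead of *FZD4* ended, 10 members led in stroma (12% of all genes) and *FZD6* led in the remaining *PECAM1* group (3.42%), at 21.4 CPM in the colon against 6.35 in its epithelium. The stromal lead of *SFRP5* ended in both stages when barcodes with a UMI of the glial gene *SOX10* were left out.

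**Figure D1:**
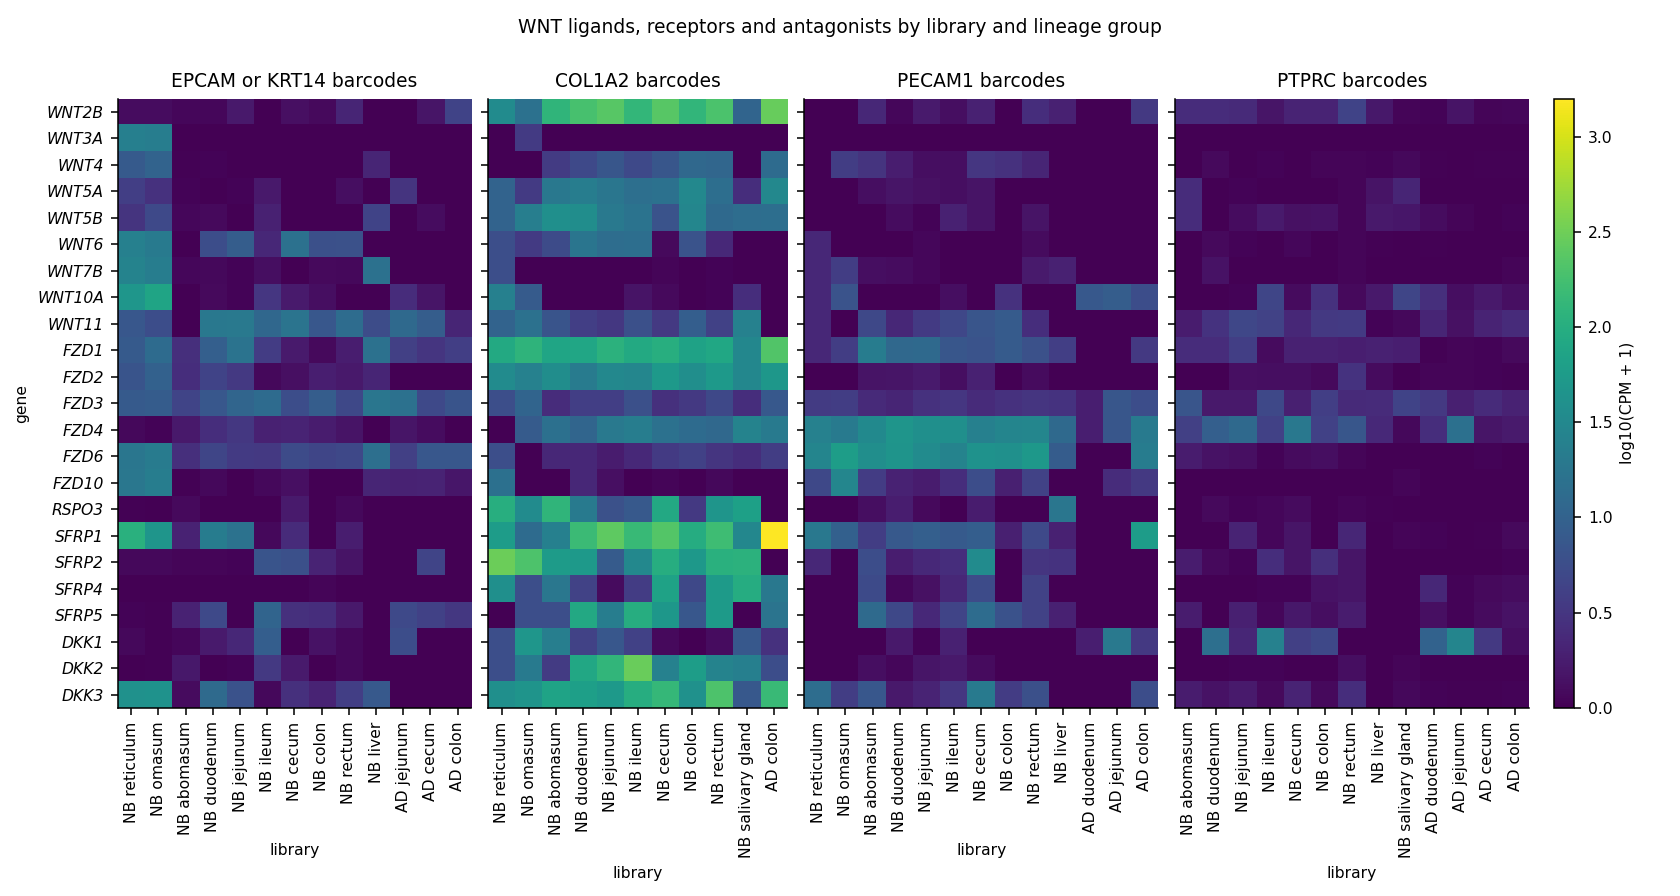
Level of the 23 members described (rows, by family) in the 50 barcode groups used (columns, by lineage and tissue), coloured by log10(CPM + 1). The COL1A2 block holds most of the filled cells, with *WNT2B* at a median of 129 CPM over the 10 NB tissues, whereas *WNT3A*, *WNT7B*, *WNT10A* and *FZD10* are filled in the epithelial columns of the reticulum and omasum.

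*WNT2B*, a canonical ligand, formed the clearest stromal pattern among the ligands. Its level in NB stromal barcodes was 33.5 CPM in the reticulum, 14.7 in the omasum, 121 in the abomasum, 183 in the duodenum, 235 in the jejunum, 132 in the ileum, 236 in the cecum, 127 in the colon, 194 in the rectum and 9.77 in the salivary gland. All 7 tissues from the abomasum to the rectum were above the reticulum, omasum and salivary gland without overlap of the intervals. Within the gut the cecum (226 to 246) and jejunum (226 to 244) did not separate from each other but did from the rectum (186 to 203). *WNT2B* led in stromal barcodes in 7 of the 7 NB libraries where it could be compared, and its median was 0.239 CPM in epithelial, 0.514 in endothelial and 1.08 in leukocyte barcodes.

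The non-canonical ligands *WNT5A* and *WNT5B*, which act largely without β-catenin, were also stromal. *WNT5A* ranged from 1.63 CPM in the salivary gland to 30.3 in the colon with a median of 14.0, and no pair of neighbouring tissues in this order had separate intervals. *WNT5B* ranged from 5.66 CPM in the cecum to 37.8 in the abomasum with a median of 16.9, again with no separated neighbours. In the order of *WNT5B* the abomasum (32.0 to 44.4) and duodenum (28.6 to 44.1) were nonetheless clear of the rectum (9.56 to 13.6) and cecum (4.24 to 7.41). *WNT4* passed 10 CPM only in stromal barcodes of the NB colon (11.2), NB rectum (10.5) and AD colon (12.3).

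The epithelial signal of WNT genes came from 5 ligands and lay mostly in the keratinized forestomach lining. In the epithelial barcodes of the NB reticulum and omasum, *WNT10A* measured 47.3 and 72.8 CPM, *WNT7B* 26.1 and 21.9 CPM, and *WNT3A* 23.1 and 21.5 CPM. *WNT6* stood at 24.0 and 20.1 CPM there. These values rested on 1472 to 6355 UMIs per gene and library, from 1176 to 3706 barcodes. In the other NB epithelia *WNT3A* did not exceed 0.0175 CPM, *WNT10A* stayed at or below 2.24 CPM, and *WNT7B* was at or below 0.319 CPM in all but the liver, where 13 UMIs gave 14.7 CPM (7.83 to 25.1).

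By library 3 members led in the reticulum epithelium (*WNT3A*, *WNT6* and *WNT7B*; 9.73% of all genes led there) and 5 in the omasum epithelium (the same genes with *WNT10A* and *SFRP1*; 9.39%). *WNT10A* did not reach the 2-fold mark in the reticulum, where 5 UMIs in stromal barcodes gave 24.0 CPM. *WNT6* and *WNT10A* lie next to each other on chromosome 2 of the ARS-UCD2.0 RefSeq annotation, and *WNT3A* and *WNT9A* on chromosome 7, with no protein-coding gene between them. Of these neighbours *WNT9A* was not detected above 10 CPM in any group.

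**Figure D2:**
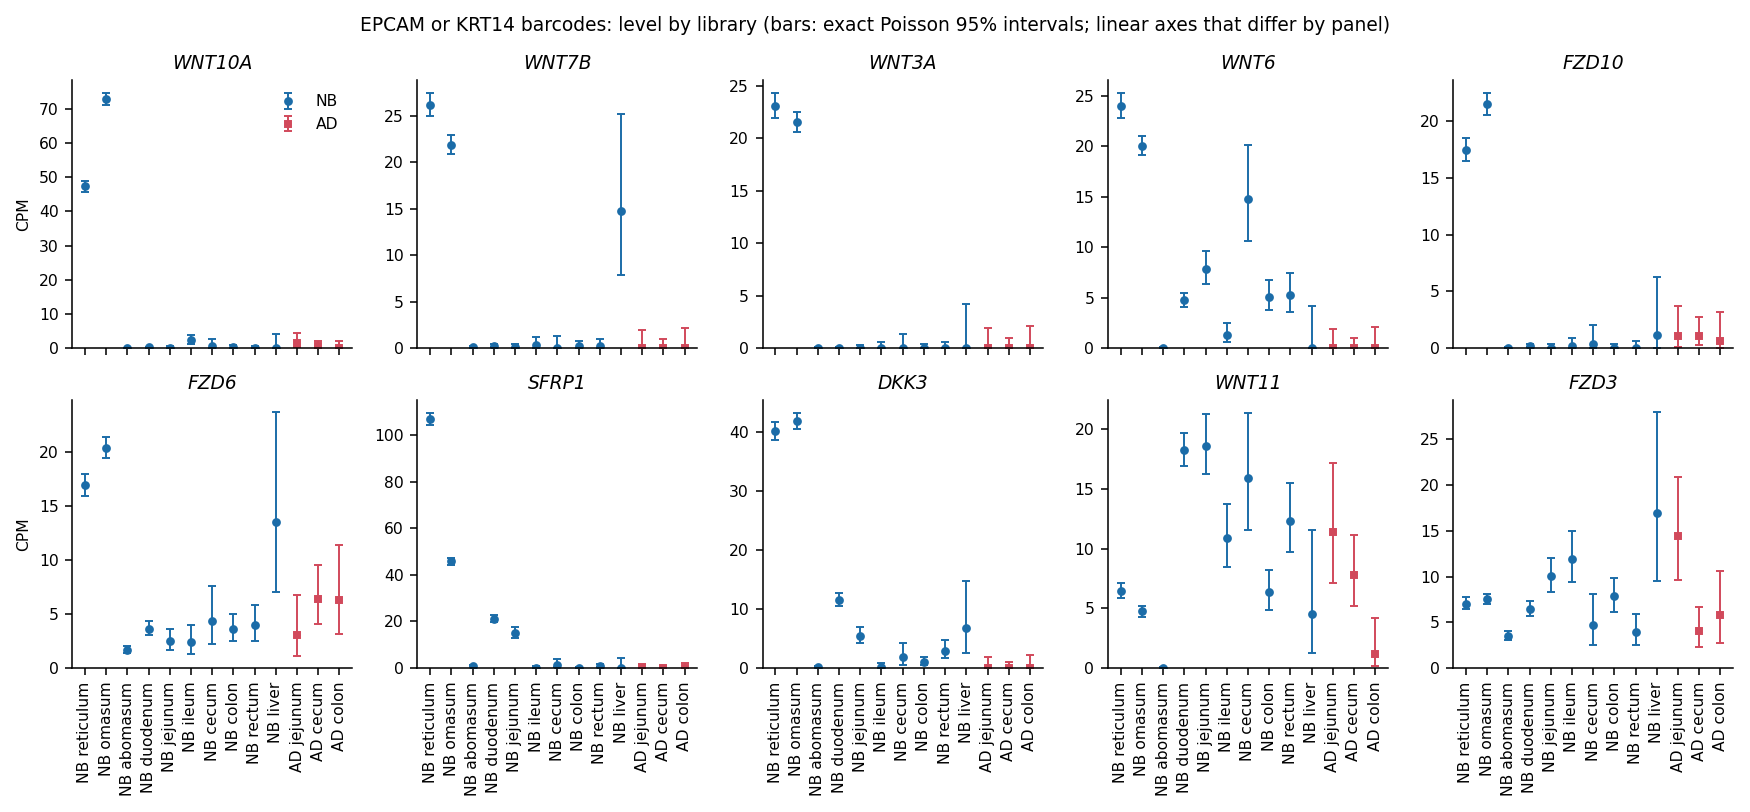
Level in EPCAM or KRT14 barcodes by tissue for members with epithelial signal, as CPM with exact Poisson 95% intervals; circles are NB and squares AD libraries, and the axes differ by panel. *WNT10A* is high in the reticulum and omasum (47.3 and 72.8 CPM) and near 0 elsewhere, whereas *WNT11* is filled along the intestine, with 18.2 CPM in the duodenum and 18.6 in the jejunum.

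*WNT11*, a mainly non-canonical ligand, had an epithelial pattern of a different kind. Its NB epithelial level was 6.46 CPM in the reticulum, 4.73 in the omasum, 0.0175 in the abomasum, 18.2 in the duodenum, 18.6 in the jejunum, 10.9 in the ileum, 15.9 in the cecum, 6.35 in the colon, 12.4 in the rectum and 4.52 in the liver. The AD values were 11.4 CPM in the jejunum, 7.77 in the cecum and 1.16 in the colon, the last from 2 UMIs. It led in the epithelium of the NB duodenum (7.62% of all genes), NB jejunum (6.68%), NB rectum (6.34%) and AD jejunum (16.9%). The AD jejunum had 1 stromal barcode, so this lead was over *PECAM1* barcodes and leukocytes alone. In the NB salivary gland *WNT11* led in stroma over leukocytes alone, at 24.4 CPM, its highest value in any group (17.0% of all genes). Its NB medians were 8.66 CPM in epithelium and 5.44 CPM in stroma. In the NB duodenum, barcodes with a UMI of the proliferation gene *MKI67* had 10.1 CPM of *WNT11* (7.62 to 13.2) and those without it 19.6 CPM (18.1 to 21.2). *WNT6* had a weaker intestinal signal, with 4.74 CPM in the duodenum, 7.84 in the jejunum, 1.28 in the ileum, 14.8 in the cecum, where it led (6.57% of all genes), 5.08 in the colon and 5.27 in the rectum. In the duodenum, ileum and jejunum *WNT6* was higher in stromal barcodes, at 16.6, 13.2 and 12.8 CPM. It led in stroma in the duodenum (8.30% of all genes) and ileum (8.42%).

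*RSPO3* was the 1 R-spondin detected at these levels, and it did not follow *WNT2B* along the tract. Its NB stromal level was 101 CPM in the reticulum, 34.4 in the omasum, 122 in the abomasum, 19.9 in the duodenum, 5.27 in the jejunum, 6.83 in the ileum, 84.0 in the cecum, 2.40 in the colon, 45.6 in the rectum and 65.1 in the salivary gland. The jejunum, ileum and colon formed a low group whose intervals did not reach those of the other tissues (highest bound 11.3 CPM, against a lowest bound of 14.7 CPM in the duodenum). The salivary gland value rested on 40 UMIs, 14 of which came from 1 barcode. In the AD colon *RSPO3* had no UMI in stromal barcodes, where 3 counts would be 2.85 CPM, and the NB colon value came from 3 UMIs, so no fold was given.

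Within the stroma *RSPO3* lay in barcodes with the fibroblast gene *PDGFRA*. Subsets of stroma and leukocytes held barcodes with a UMI of their own marker and none of the other subset markers. Those of the glial gene *SOX10* and of *CLEC9A* were added after values had been seen and can share barcodes with the others. Among endothelial barcodes, the *PROX1* or *LYVE1* set below could also carry *VWF*. Epithelial sets with and without *MKI67* were split by that gene alone. *PDGFRA* barcodes had 370 CPM of *RSPO3* in the abomasum (333 to 410), 202 in the cecum (184 to 220), 182 in the rectum (164 to 202), 126 in the duodenum and 75.6 in the omasum, but 8.80 CPM in the jejunum (5.12 to 14.1). Barcodes with the pericyte gene *RGS5* had 0 UMIs of *RSPO3* in all 5 NB libraries with enough of them, with upper bounds from 3.99 to 20.3 CPM. In the cecum, stromal barcodes with *RSPO3* UMIs held 3550 CPM of *DLK1* and 5189 CPM of *MFAP5*, against 99.6 and 192 CPM in those without. Such companion genes, here and below, were picked after their values had been seen, among those with the highest ratio. Outside the stroma *RSPO3* led in the *PECAM1* barcodes of the NB liver at 17.2 CPM (10.2 to 27.2; 3.11% of all genes led there), from 18 UMIs in 5 barcodes with 8 of them in 1 barcode. Stroma could not be compared in the liver, and this group also held leukocytes.

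Of the receptors, *FZD1* and *FZD2* led in stroma. *FZD1* ranged in NB stromal barcodes from 29.3 CPM in the salivary gland to 118 CPM in the omasum with a median of 83.1, and it led there in all 10 NB libraries with enough stromal barcodes. Along the other 9 tissues the neighbouring intervals overlapped, from 67.9 CPM in the colon to 118. *FZD2* ranged from 20.4 CPM in the duodenum to 52.6 in the cecum with a median of 31.8, and led in stroma in 9 of 9 libraries compared. The cecum (48.0 to 57.4) and rectum (46.8 to 55.2) were above the jejunum (27.1 to 33.4) for *FZD2*.

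*FZD4*, the receptor for norrin in blood vessels, and *FZD6* were highest in NB endothelial barcodes. *FZD4* measured 24.7 CPM in the reticulum, 19.8 in the omasum, 31.7 in the abomasum, 45.7 in the duodenum, 38.6 in the jejunum, 38.4 in the ileum, 23.5 in the cecum, 27.4 in the colon, 28.6 in the rectum and 11.5 in the liver. Its endothelial median of 28.0 CPM was above the stromal one of 13.0, a gap of 0.87 on the log2 scale that did not reach the 2-fold mark. *FZD6* measured 27.3 CPM in the reticulum, 59.4 in the omasum, 37.6 in the abomasum, 43.9 in the duodenum, 34.3 in the jejunum, 25.9 in the ileum, 41.8 in the cecum, 39.3 in the colon, 49.3 in the rectum and 7.65 in the liver, with a median of 38.5 against 3.81 in epithelium. *FZD6* led in endothelial barcodes of 8 of 10 NB libraries, the omasum (7.70% of all genes), abomasum (6.35%), duodenum (5.24%), jejunum (5.09%), ileum (5.60%), cecum (4.57%), colon (4.53%) and rectum (4.85%). *FZD4* led in those of the reticulum (10.8%), duodenum, rectum and liver, where the *PECAM1* group held leukocytes too. In the NB salivary gland *FZD4* led in stroma, which could be compared with leukocytes alone there (17.0% of all genes). In the AD colon the endothelial levels were 19.0 CPM for *FZD4* (8 UMIs) and 21.4 CPM for *FZD6* (9 UMIs).

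Both receptors were seen in blood and lymphatic endothelial barcodes. In the abomasum *FZD6* was higher in barcodes with *PROX1* or *LYVE1*, genes of lymphatic endothelium, at 67.7 CPM (54.4 to 83.2), than in those with *VWF* and neither, at 30.9 CPM (25.9 to 36.6), while in the jejunum, duodenum and rectum the intervals of the 2 sets overlapped. *FZD1* lay the other way in the abomasum, at 7.52 CPM (3.61 to 13.8) against 25.7 CPM (21.2 to 30.9), and in the jejunum, at 2.57 CPM (1.03 to 5.30) against 15.3 CPM (13.0 to 17.9), but the sets were close in the rectum, at 5.69 and 6.07 CPM, and in the cecum, at 4.95 and 6.21 CPM. The ligand gene *WNT2*, too low to pass 10 CPM in any lineage group, reached 20.1 CPM (13.6 to 28.5) in the *PROX1* or *LYVE1* barcodes of the duodenum, from 31 UMIs, against 0 UMIs in the *VWF* set. *SFRP5* stood in the abomasum at 44.4 CPM (33.8 to 57.2) in the *PROX1* or *LYVE1* set and 2.50 CPM (1.25 to 4.47) in the *VWF* set.

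In epithelium *FZD10* and *FZD6* were highest in the forestomach, and *FZD1* and *FZD3* elsewhere. *FZD10* measured 17.5 CPM in the reticulum and 21.5 in the omasum and at most 1.13 CPM in the other NB epithelia, and 28.3 CPM in the omasal *PECAM1* barcodes from 10 UMIs (13.6 to 52.0). *FZD6* measured 17.0 and 20.4 CPM there, 13.6 CPM in the liver from 12 UMIs, and at most 4.34 CPM in the other NB epithelia. In the omasum *FZD6* was higher in barcodes with *MKI67* at 25.8 CPM (23.9 to 27.8) than without at 18.0 CPM (17.0 to 19.1), whereas *WNT10A* was lower with *MKI67*, at 56.9 CPM (54.1 to 59.8) against 80.0 CPM (77.8 to 82.3), and *WNT3A* did not separate, at 21.3 and 21.6 CPM. *FZD3* was seen in all epithelia, from 3.53 CPM in the abomasum (3.06 to 4.05) to 10.0 in the jejunum (8.31 to 12) and 17.0 in the liver. In the AD jejunum *FZD3* measured 14.4 CPM. Once the *PECAM1* group was left out it led there, over leukocytes alone (17.5% of all genes). *FZD1* was present in the NB jejunal epithelium at 15.3 CPM and in that of the liver at 14.7 CPM. In the liver *FZD1*, *FZD3* and *WNT7B* led in epithelial barcodes, as did 17.2% of all genes, with 13 to 15 UMIs each. The liver had only 4 stromal barcodes, so these genes were compared with *PECAM1* barcodes and leukocytes alone. Without the *PECAM1* group the 3 leads stood and *FZD6* led as well (23.4% of all genes).

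*FZD4* also had a leukocyte pattern. Its leukocyte level ran from 0.187 CPM in the NB salivary gland to 18.4 CPM in the NB cecum with a NB median of 3.13, and was 14.3 CPM in the AD jejunum. It lay in barcodes with *CLEC9A*, a receptor of cross-presenting dendritic cells: 52.2 CPM (45.1 to 60.1) in the NB cecum, 54.2 (44.1 to 66.0) in the NB jejunum, 51.7 (37.3 to 69.9) in the NB rectum, 37.8 (25.7 to 53.6) in the NB duodenum and 63.5 (56.4 to 71.2) in the AD jejunum. The set of B-lineage genes *MS4A1*, *CD79A* or *JCHAIN*, which can share barcodes with it, had 34.1 CPM in the NB cecum and 30.5 CPM in the AD jejunum. *JCHAIN* also stood outside leukocytes in both libraries. Barcodes with the T cell gene *CD3E* had between 0 and 3.65 CPM of *FZD4*. In the AD jejunum, leukocytes with *FZD4* UMIs had 744 CPM of *IDO1* against 97.6 CPM in those without.

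**Figure D3:**
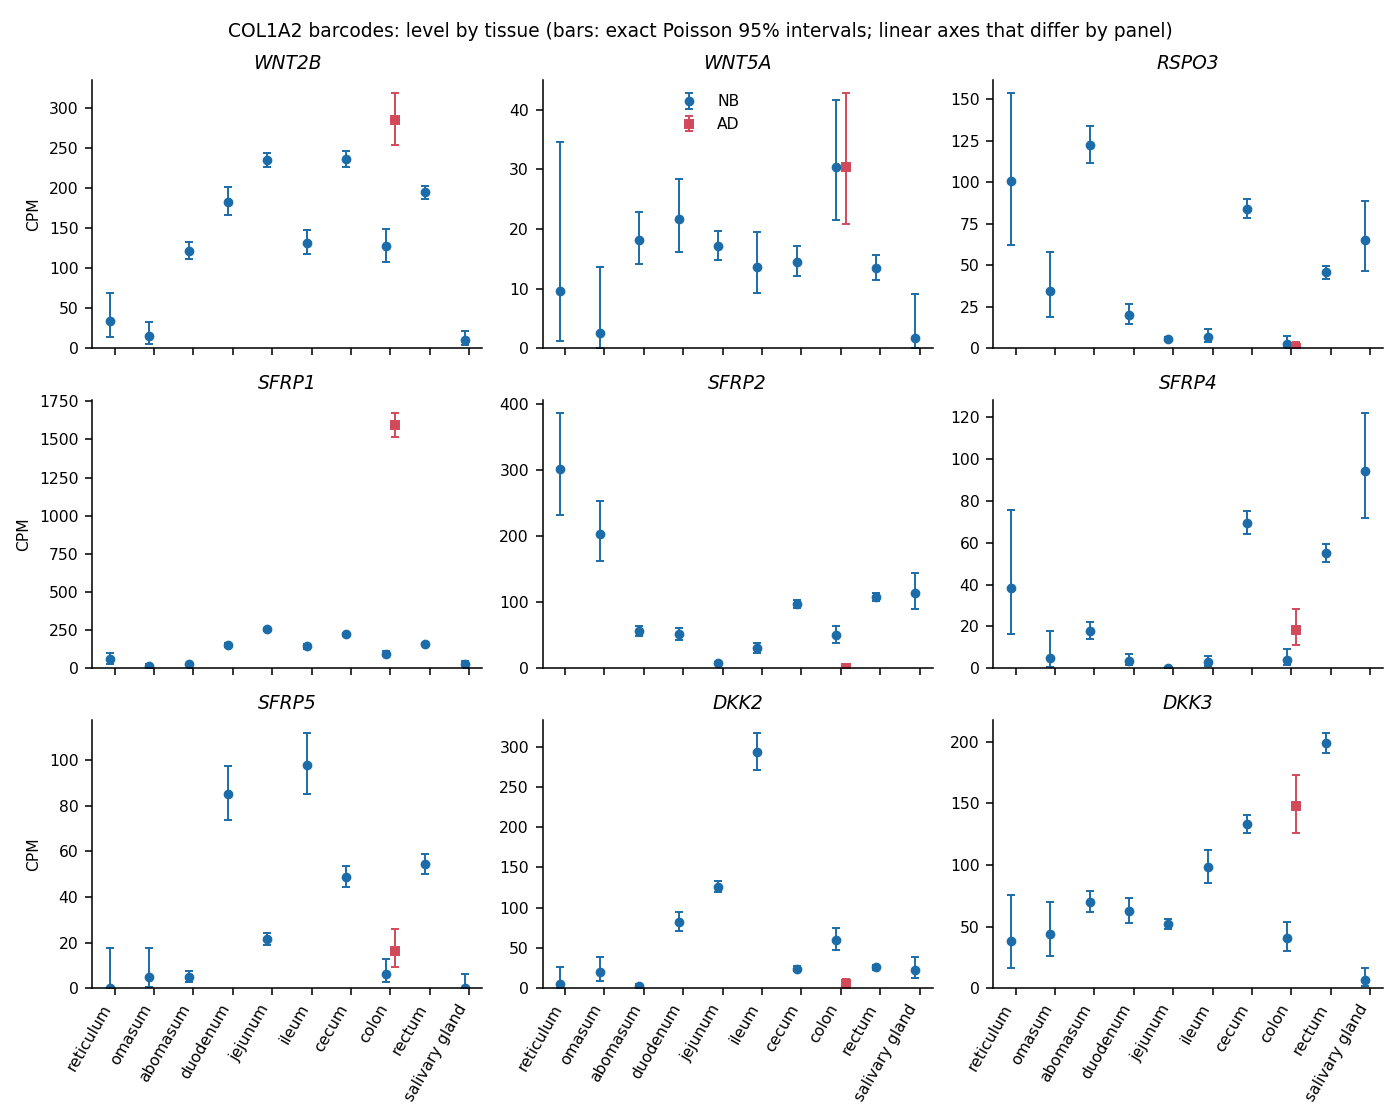
Level of 9 members in COL1A2 barcodes by tissue, as CPM with exact Poisson 95% intervals, NB as circles and AD colon as squares, with an axis of its own in each panel. *DKK2* peaks in the ileum (293 CPM), *SFRP2* in the reticulum and omasum (302 and 204 CPM), and *SFRP1* stands in the AD colon at 1595 CPM.

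The 4 SFRP genes, whose products bind WNT ligands outside the cell, each had its own distribution along the NB stroma. *SFRP1* was 57.5 CPM in the reticulum, 12.3 in the omasum, 24.0 in the abomasum, 150.4 in the duodenum, 254 in the jejunum, 143 in the ileum, 221 in the cecum, 94.2 in the colon, 158 in the rectum and 29.3 in the salivary gland. It was high in the intestine and low in the stomach compartments, with the jejunum and cecum separate from each other and from all other tissues. *SFRP1* was also epithelial in the reticulum (107 CPM), omasum (45.8), duodenum (21.2) and jejunum (15.2). It had 0 UMIs in the 3 AD epithelia (jejunum, cecum and colon), but was also low in the NB cecum (1.45 CPM) and NB colon (0 UMIs).

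*SFRP2* differed from *SFRP1* most in the forestomach and jejunum. Its level was 302 CPM in the reticulum, 204 in the omasum, 56.2 in the abomasum, 51.5 in the duodenum, 7.27 in the jejunum, 30.1 in the ileum, 96.8 in the cecum, 49.5 in the colon, 108 in the rectum and 114 in the salivary gland. The reticulum and omasum were separate from every other tissue and the jejunum lay below all of them. In the jejunum *PDGFRA* barcodes had 4.66 CPM of *SFRP2* (2.13 to 8.84), against 412 in the rectum (384 to 441), 257 in the cecum (238 to 278) and 343 in the omasum (261 to 442).

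*SFRP4* was high in the salivary gland (94.4 CPM), cecum (69.5) and rectum (55.0), intermediate in the reticulum (38.3) and abomasum (17.6), and at or below 4.91 CPM in the other 5 tissues, with 0.251 CPM in the jejunum. Single barcodes carried much of this signal. In the cecum 281 of 651 UMIs came from 1 of the 84 barcodes with a UMI, in the rectum 210 of 620, and in the salivary gland 23 of 58.

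*SFRP5* lay mainly in 1 subset. Over whole stromal groups it measured 97.9 CPM in the ileum, 85.2 in the duodenum, 54.5 in the rectum, 48.9 in the cecum, 21.5 in the jejunum and at most 6.39 CPM in the other 5 tissues. In barcodes with a UMI of *SOX10*, a transcription factor gene of glia, it reached 1002 CPM in the jejunum (837 to 1189), 1098 in the cecum (976 to 1231) and 1183 in the rectum (1077 to 1295). These sets held 57, 62 and 113 barcodes, and the other libraries had fewer than 50. *PDGFRA* barcodes of the same libraries had between 1.21 and 10.3 CPM, and *RGS5* barcodes of the jejunum and rectum 0 and 2.16 CPM. *MYH11* or *DES* barcodes had 5.27 CPM in the jejunum and 197 CPM in the rectum. Jejunal stromal barcodes with *SFRP5* UMIs also had 1538 CPM of the myelin gene *MAL* and 1048 CPM of the glial sodium channel gene *SCN7A*, against 6.37 and 2.80 CPM in those without. The *COL1A2* groups thus took in barcodes with glial transcripts.

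The Dickkopf genes split by site. *DKK2*, an antagonist acting on LRP co-receptors, was 4.79 CPM in the reticulum, 19.6 in the omasum, 2.55 in the abomasum, 82.3 in the duodenum, 126 in the jejunum, 293 in the ileum, 24.1 in the cecum, 59.9 in the colon, 25.7 in the rectum and 22.8 in the salivary gland. The small intestine was highest, and the ileum and jejunum were separate from each other and from all other tissues. In the jejunum *DKK2* lay in *PDGFRA* barcodes at 205 CPM (186 to 227), against 3.77 in *RGS5* and 7.91 in *MYH11* or *DES* barcodes, and barcodes with *DKK2* UMIs had 1072 CPM of the chemokine gene *CXCL13* against 9.51 CPM in those without.

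*DKK3*, a divergent family member, was 38.3 CPM in the reticulum, 44.2 in the omasum, 70.0 in the abomasum, 62.3 in the duodenum, 51.9 in the jejunum, 98.4 in the ileum, 133 in the cecum, 40.7 in the colon, 199 in the rectum and 6.51 in the salivary gland. The rectum, cecum and ileum were each separate from all others. Barcodes with *SOX10* had 1691 CPM of *DKK3* in the rectum (1565 to 1825), 1457 in the cecum (1316 to 1610) and 578 in the jejunum (455 to 724), against 138, 74.0 and 47.1 CPM in *PDGFRA* barcodes. *DKK3* was at the same level in the forestomach epithelium, with 40.1 CPM in the reticulum and 41.8 in the omasum. As the *KRT5* values above show, some epithelial RNA stood in forestomach stromal barcodes, and its part in the stromal *DKK3* value was not tested.

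**Figure D4:**
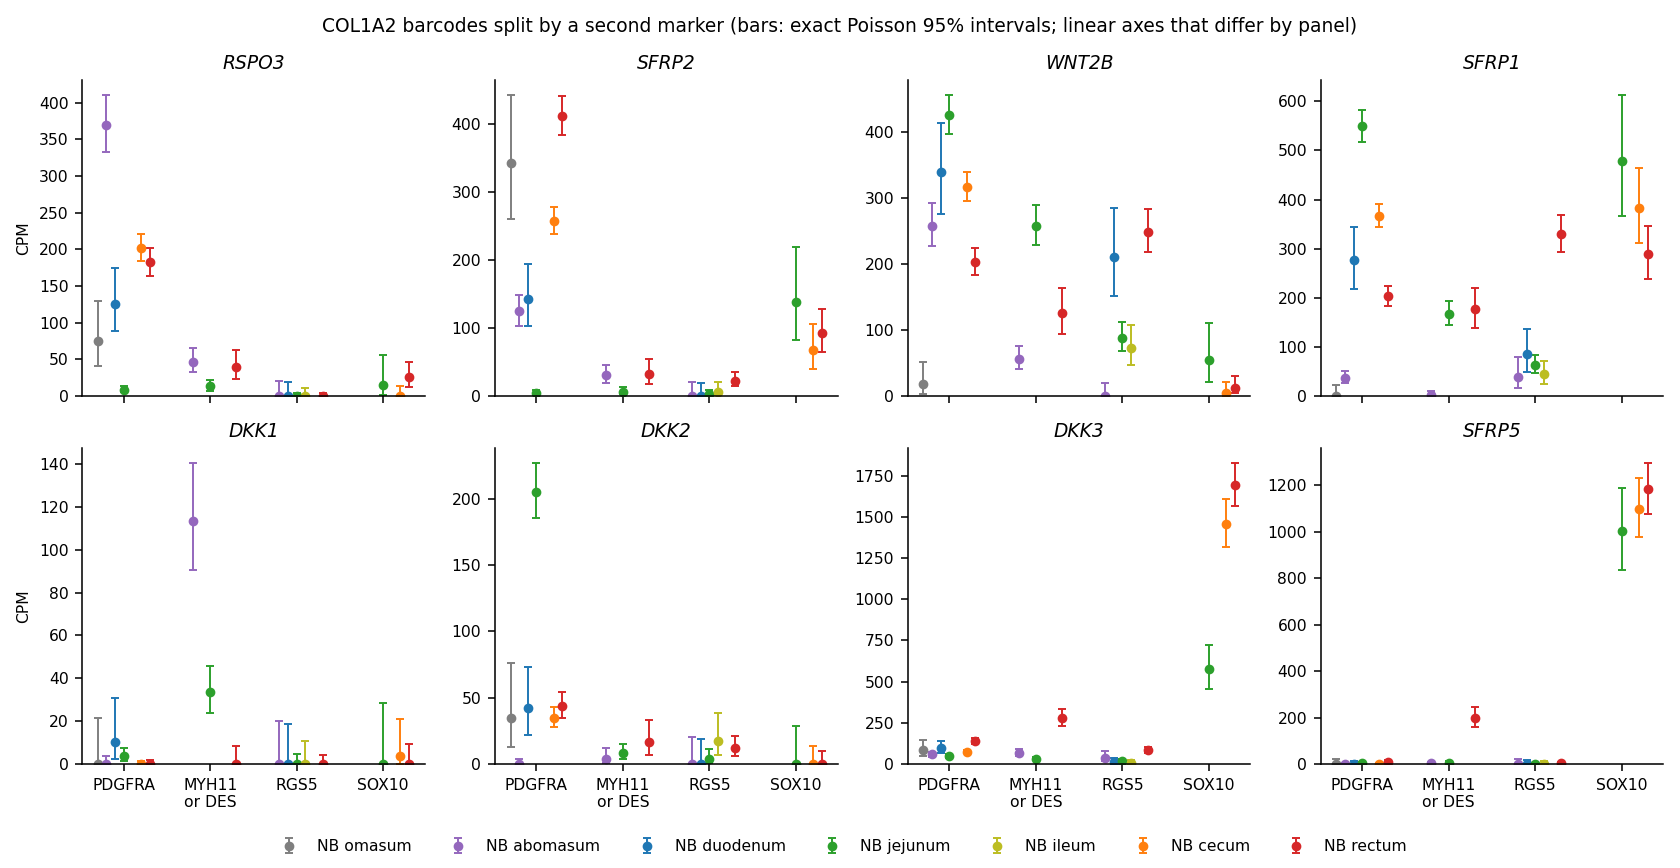
Level of members in subsets of NB COL1A2 barcodes set by 1 marker group each (PDGFRA, RGS5, MYH11 or DES, and SOX10), as CPM per library with exact Poisson 95% intervals, on linear axes that differ by panel. *SFRP5* and *DKK3* are highest in the SOX10 subset (578 to 1691 CPM), and *RSPO3* in the PDGFRA subset of the abomasum at 370 CPM.

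*DKK1*, the best known Dickkopf antagonist, was found in 2 settings. In stroma it measured 46.6 CPM in the NB omasum, but all 19 UMIs came from 1 barcode, and 22.5 CPM in the NB abomasum (18.0 to 27.7). In the abomasum it lay in barcodes with the smooth muscle genes *MYH11* or *DES* at 114 CPM (90.7 to 140.4) and in no *PDGFRA* barcode. The corresponding subset had 33.4 CPM in the jejunum (23.6 to 45.8) and 0 UMIs in the rectum.

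In leukocytes *DKK1* was 0 CPM in the NB abomasum, rectum, liver and salivary gland, 13.7 in the NB duodenum, 1.21 in the NB jejunum, 24.7 in the NB ileum, 3.05 in the NB cecum and 3.99 in the NB colon. The AD values were 9.09 CPM in the duodenum, 27.8 in the jejunum, 2.44 in the cecum and 0.306 in the colon. Its level differed between leukocyte subsets. In the NB ileum, barcodes with the B-lineage genes *MS4A1*, *CD79A* or *JCHAIN* had 29.4 CPM (26.5 to 32.5). In the AD jejunum, barcodes with the macrophage and monocyte genes *CSF1R* or *CD14* had 147 CPM (126 to 172). Those with the B-lineage genes had 3.11 CPM there (2.05 to 4.52), though *JCHAIN* also stood in epithelial barcodes of that library. The *CSF1R* or *CD14* barcodes of the NB jejunum had 1.79 CPM (1.02 to 2.91). In the AD jejunum, leukocytes with *DKK1* UMIs had 971 CPM of *TIMD4*, a receptor gene of resident macrophages, against 167 CPM in those without. *DKK1* led in leukocytes of the NB duodenum (6.68% of all genes) and NB ileum (6.08%). Without the AD jejunum *PECAM1* group, which had 18.6 CPM of *DKK1*, *DKK1* and *FZD4* led in AD jejunal leukocytes too (17.5%), against 4.64 and 0.516 CPM in epithelium.

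The NB and AD stages could be compared in 11 tissue and lineage pairs. A gene was called higher in a stage when it differed at least 2-fold, with 5 CPM added to both values, and had at least 10 CPM and 10 UMIs in the higher group. In colon stroma 2 of 13 members compared were higher in NB, where 6.66% of 8763 genes were, and 5 were higher in AD, where 10.6% were. The median log2 difference (NB minus AD) was -0.50 over these 13 members and -0.08 over all genes.

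*SFRP1* showed the greatest AD excess among members in colon stroma, with 94.2 CPM in NB (78.0 to 113) and 1595 CPM in AD, which is 16.9-fold higher in AD (14.0 to 20.6). *DKK3* was 3.63-fold higher in AD (2.63 to 5.09), at 40.7 and 148 CPM, a log2 difference of -1.74 that became -0.85, short of the call, when doublets were left in. *FZD1* was 3.15-fold higher in AD (2.44 to 4.09), at 67.9 and 213 CPM, and *WNT2B* 2.24-fold higher in AD (1.84 to 2.73), at 127 and 284.6 CPM. *SFRP4* was 4.51-fold higher in AD (1.63 to 15.5), at 3.99 and 18.0 CPM, but 12 of its 19 AD UMIs came from 1 barcode. The 5 AD-higher genes thus comprised a ligand, a receptor and 3 genes of antagonist families.

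In the other direction, *SFRP2* had 49.5 CPM in NB colon stroma (38.0 to 63.5) and no UMI in AD, at least 17.4-fold higher in NB with the AD value set at 3 counts. *DKK2* had 59.9 CPM in NB and 4.74 CPM in AD, 12.6-fold higher in NB (5.18 to 40.0). Within the SFRP family the stages thus differed in opposite directions for *SFRP1* and *SFRP2*. *WNT5A* was at 30.3 and 30.4 CPM (ratio 1.00, 0.605 to 1.64), and *WNT4*, *WNT5B*, *FZD2*, *FZD4* and *SFRP5* were not called either, with ratios between 1.10 and 2.52.

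The make-up of the colon stromal groups differed in some markers. Stromal markers summed to 13305 CPM in NB and 16438 in AD, smooth muscle markers to 971 and 1682 CPM and pericyte markers to 953 and 1220 CPM, over 182 and 150 barcodes, of which 2 and 5 had a UMI of *SOX10*. The *PDGFRA* subset held 16 of the NB and 7 of the AD barcodes, and the *RGS5* subset 14 and 8. Both subsets left out barcodes with another subset marker. The plasma cell transcript *JCHAIN* measured 121 CPM in NB and 1330 CPM in AD. The part of these differences in the member values was not tested.

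**Figure D5:**
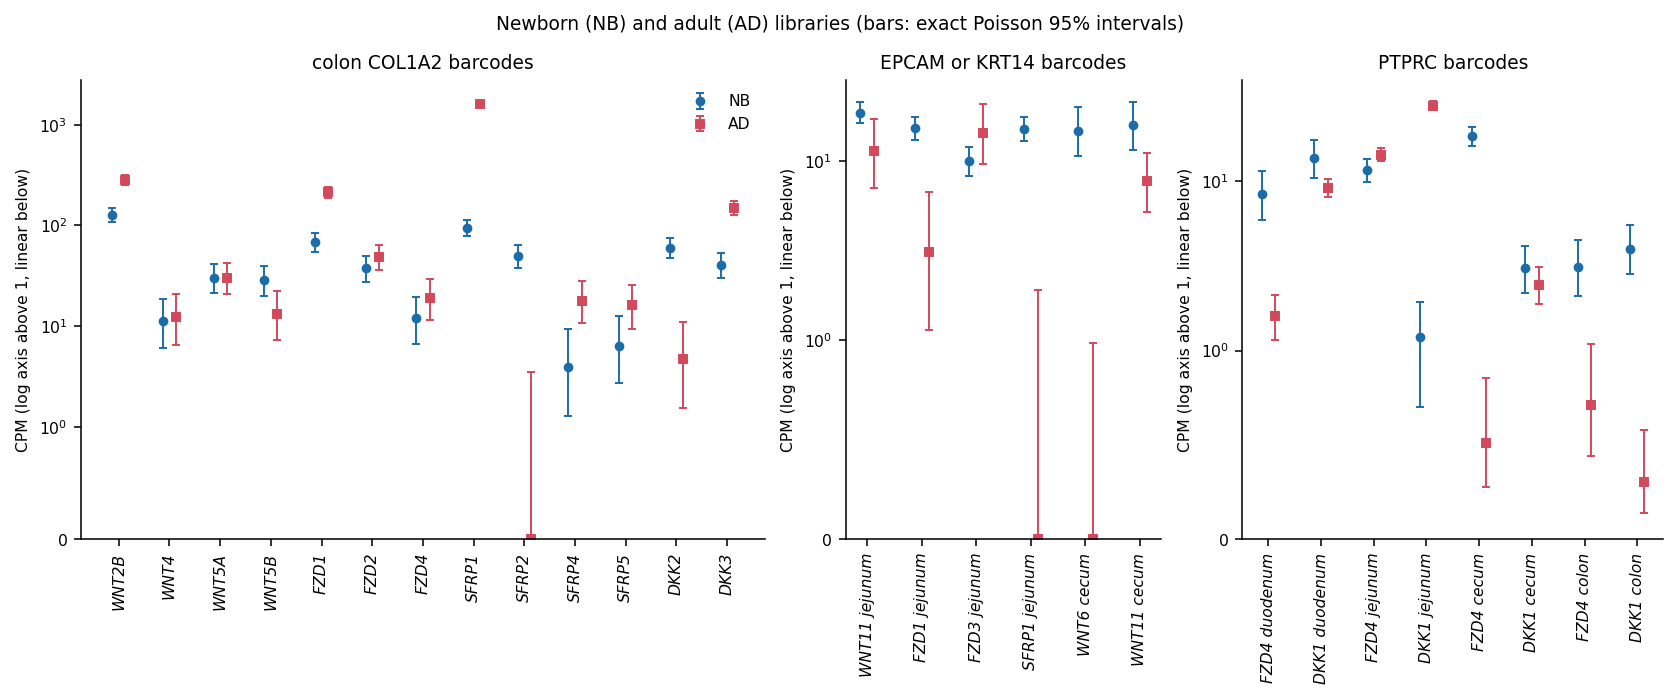
Level of members in NB (circles) and AD (squares) libraries, as CPM with exact Poisson 95% intervals on an axis that is logarithmic above 1 CPM and linear below. The panels show members compared in colon COL1A2 barcodes and in EPCAM or KRT14 barcodes, and *FZD4* and *DKK1* in PTPRC barcodes. In colon stroma *SFRP1* is higher in AD (94.2 in NB and 1595 CPM in AD) and *DKK2* higher in NB (59.9 and 4.74 CPM).

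In epithelium 4 members could be compared in the jejunum and 2 in the cecum. Of these 3 were called, all higher in NB. In the jejunum (6.43% of all genes higher in NB) *FZD1* had 15.3 CPM in NB and 3.09 in AD, 4.96-fold higher (2.23 to 13.7), a log2 difference of 1.33 that was 0.72 among barcodes under 10% mitochondrial UMIs. Jejunal *SFRP1* had 15.2 CPM in NB and no UMI in AD, at least 9.80-fold higher. In the cecum (6.54%) *WNT6* had 14.8 CPM in NB and no UMI in AD, at least 18.4-fold higher. *WNT11* was 18.6 and 11.4 CPM in the NB and AD jejunum, and 15.9 and 7.77 CPM in the cecum, which was not called. Jejunal *FZD3*, at 10.0 CPM in NB and 14.4 CPM in AD, was not called either. No member could be compared in the colon epithelium. The summed hepatocyte markers, *APOA1* among them, were 16558 CPM in NB and 62.9 CPM in AD jejunal epithelium, and 130 and 1.07 CPM in the cecum. Barcodes with *MKI67* were 208 of 945 in NB and 13 of 201 in AD jejunal epithelium, and 30 of 263 and 18 of 311 in the cecum. Stromal markers, too, summed to 27.6 CPM in NB and 0 in AD jejunal epithelium and to 112 and 0 CPM in the cecum, and endothelial markers to 65.0 and 0.516 CPM and to 43.7 and 0.536 CPM. The part of this make-up in the calls was not tested. Across all genes, NB accounted for 28.0% of calls in jejunal and 45.5% in cecal epithelium, and for 62.3% in both under TMM scaling, which centres the genes. The median log2 difference of all genes moved from -0.35 to 0.10 in jejunal and from -0.19 to 0.01 in cecal epithelium, and the 3 member calls kept their direction.

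In leukocytes 2 calls were made. *DKK1* was 23.0-fold higher in the AD jejunum (14.3 to 39.7; 8.84% of all genes were higher in AD there), at 27.8 against 1.21 CPM. Cecal *FZD4* was 36.1-fold higher in NB (21.1 to 66.9; 15% of all genes higher in NB), at 18.4 against 0.510 CPM. In jejunal leukocytes NB accounted for 40.8% of all calls, and for 54.3% under TMM scaling. *FZD4* in the jejunum (11.6 and 14.3 CPM) and *DKK1* in the duodenum (13.7 and 9.09 CPM) were not called. The NB cecum held 258 leukocyte barcodes with *CLEC9A* and the AD cecum 10.

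In *PECAM1* barcodes 3 members (*FZD1*, *FZD4* and *FZD6*) were called higher in the NB duodenum, beside 57.5% of all genes (none in AD, beside 5.22%), and 3 in the NB jejunum, beside 43.2%. *DKK1* was called higher in AD *PECAM1* barcodes of the jejunum (5.93% of all genes), with 12 UMIs in 7 barcodes. All 7 calls in the duodenum and jejunum compared NB endothelium with the AD groups that had almost no *CDH5*, so none of these 7 is left without those groups. The median log2 difference of all genes was 1.17 in the duodenum and 0.84 in the jejunum (0.16 and 0.24 under TMM scaling). NB accounted for 91.7% of all calls in the duodenum and 87.9% in the jejunum, and for 62.3% and 66.3% under TMM scaling, with 1860 NB and 1127 AD calls in the duodenum and 1713 and 869 in the jejunum. In the colon the NB share went from 85.9% to 64.4%. In the colon, where both groups had *CDH5*, *SFRP1* was higher in AD, at 0.915 CPM from 1 UMI against 56.9 CPM from 24 UMIs (ratio 62.2, 10.2 to 2559; 3.60% of all genes). *FZD4* (27.4 and 19.0 CPM) and *FZD6* (39.3 and 21.4 CPM) were not called in the colon. The AD colon group also held leukocyte transcripts, with summed leukocyte markers between 512 and 1019 CPM beside 2517 CPM of endothelial markers. *CD3E* measured 23.8 CPM in the NB and 121 CPM in the AD colon group. The part of these transcripts in the colon values was not tested.

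Of 50 other WNT pathway genes, chosen for their textbook role, 48 were listed in the files. In NB 28 could be compared: 3 led in epithelium (*LGR4*, *RNF43* and *ASCL2*; 4.07% of all genes), 6 in stroma (*ROR1*, *ROR2*, *PTK7*, *WLS*, *SOSTDC1* and *NKD1*; 7.70%) and 1 in leukocytes (*TCF7*; 5.52%). In AD 27 could be compared, of which 4 led in epithelium (8.93% of all genes), 9 in stroma (15.5%) and 1 in leukocytes (5.90%). The R-spondin receptor *LGR4* thus led in epithelium, while the ligand *RSPO3* led in stroma.

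Among the R-spondin receptors, *LGR4* ranged over NB epithelia from 33.7 CPM in the jejunum to 99.1 in the rectum. *LGR5*, the intestinal stem cell receptor, did not exceed 6.88 CPM in any group, that value being in the NB colon epithelium. *LGR6* reached 16.2 CPM in the omasum and 9.42 in the reticulum. *RNF43*, a ubiquitin ligase that removes Frizzled receptors, measured 6.79 to 31.1 CPM in NB epithelia, and its homologue *ZNRF3* 2.96 to 24.0 CPM.

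The co-receptor *LRP5* was present in all lineages of NB cattle, at medians of 32.5 CPM in epithelial, 36.8 in stromal, 64.5 in endothelial and 25.8 in leukocyte barcodes, and *LRP6* was low, at medians of 1.64 to 12.2 CPM. *WLS*, which carries WNT proteins to the cell surface, had a stromal range of 4.88 to 52.7 CPM in NB and was 16.2 and 21.5 CPM in the epithelium of the reticulum and omasum. *PORCN*, which adds the lipid to WNT proteins, had a stromal median of 8.78 CPM and reached 7.06 CPM in epithelium, in the reticulum. *FRZB* reached 20.2 CPM in abomasal stroma and *WIF1* at most 2.37 CPM anywhere.

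*AXIN2*, a target and feedback inhibitor of the canonical branch, measured 23.0 CPM in the NB colon epithelium, 24.6 and 28.3 CPM in that of the AD cecum and colon, and 63.8 CPM in the stroma of the NB omasum, from 26 UMIs in 25 barcodes. *NOTUM*, an enzyme that removes the lipid from WNT proteins, measured 17.5 CPM in the epithelium of the NB duodenum and 39.3 CPM in the stroma of the NB omasum, from 16 UMIs in 16 barcodes. In the omasal stroma both genes were spread over many barcodes.

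Between stages, 3 of 19 pathway genes compared were higher in NB jejunal epithelium (6.43% of all genes) and 1 in AD (16.6%). In cecal epithelium 1 of 19 was higher in NB (6.54%) and 1 in AD (7.83%), and in colon epithelium 3 of 21 in NB (5.0%) and 2 in AD (17.6%). NB accounted for 22.1% of all calls in colon epithelium and for 53.7% under TMM scaling. Colon stroma had 3 of 28 higher in NB (6.66%) and 1 in AD (10.6%). In leukocytes 3 of 13 were higher in NB and 2 in AD in the duodenum (13.9% and 17.1%), 0 and 1 of 11 in the jejunum (6.08% and 8.84%), 4 and 1 of 11 in the cecum (15% and 12.2%) and 5 and 0 of 12 in the colon (12% and 11.4%). In *PECAM1* barcodes the counts were 13 and 1 of 16 in the duodenum (57.5% and 5.22%), 12 and 0 of 14 in the jejunum (43.2% and 5.93%) and 3 and 0 of 15 in the colon (22% and 3.60%).

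Some pathway genes were called in the same direction in several tissues, which are not independent since all AD tissues came from 1 cow. They were picked for this, and the share of all genes called alike in several tissues is not given here. In epithelium *LGR4* was higher in AD in the cecum (82.1 and 203 CPM) and colon (46.2 and 193.5 CPM), and *TCF7L2*, the main β-catenin partner of intestinal epithelium, in the jejunum (37.9 and 99.0 CPM) and colon (49.3 and 222 CPM). *ASCL2*, a stem cell transcription factor, was higher in NB in the jejunum (54.3 and 6.19 CPM), cecum (50.2 and 4.02 CPM) and colon (112 and 2.31 CPM), and *DKKL1*, a Dickkopf-like gene, in the jejunum (77.9 and 8.25 CPM) and colon (50.6 and 5.78 CPM). In colon epithelium, barcodes with *LGR5* were 53 of 832 in NB and 1 of 172 in AD, and those with *MKI67* 122 and 14, and their part in these values was not tested either. In leukocytes *TCF7*, a T cell factor, was higher in AD in the duodenum (3.97 and 168 CPM), jejunum (4.26 and 27.6 CPM) and cecum (36.5 and 129 CPM). Barcodes in the *CD3E* subset were 27 of 496 leukocyte barcodes in the NB and 738 of 6729 in the AD duodenum. They were 86 of 1467 and 460 of 6152 in the jejunum, and 240 of 1289 and 4052 of 6793 in the cecum. This subset left out barcodes with a UMI of *JCHAIN* or another subset marker, so these counts can miss T cells. Over whole leukocyte groups *CD3E* measured 1427 CPM in the AD duodenum and 853.5 CPM in the AD jejunum. In the cecum it measured 194.4 CPM in NB and 2480 CPM in AD. The part of T cells in the *TCF7* values was not tested. *CCND1*, *EPHB3* and *LRP5* were higher in NB leukocytes of the duodenum, cecum and colon. In the cecum *CCND1* measured 50.2 and 1.97 CPM, *EPHB3* 13.9 and 1.06 CPM and *LRP5* 41.5 and 2.55 CPM. *MYC* was higher in NB in the cecum (52.1 and 21.1 CPM) and colon (67.9 and 17.5 CPM). Barcodes of the *CSF1R* or *CD14* subset were 221 of 496 leukocyte barcodes in the NB and 49 of 6729 in the AD duodenum, 259 of 1289 and 42 of 6793 in the cecum, and 83 of 1376 and 41 of 6787 in the colon. These counts, too, left out barcodes with another subset marker. The part of such cells in these calls was not tested. In *PECAM1* barcodes *APC*, *CCND1*, *CSNK1A1*, *CTNNB1*, *DKKL1*, *GSK3B*, *LGR4*, *MYC* and *TCF7L2* were called higher in the NB duodenum and jejunum, where the AD groups had almost no *CDH5*, and *LRP5* and *TCF7L1* there and in the colon. Of all genes, 57.5% were higher in NB in the duodenum, 43.2% in the jejunum and 22.0% in the colon.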

How the data were processed

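The authors aligned 10x Genomics 3′ libraries with Cell Ranger 3.1.0 to ARS-UCD1.2 and deposited raw UMI counts per gene and barcode, without normalization. The annotation release is not given in the sources used here. A barcode was kept if it had 500 to 4000 genes detected, fewer than 50000 UMIs and less than 40% of its UMIs from mitochondrial genes, and predicted doublets (0.8% per 1000 barcodes) were removed with a neighbour score against simulated doublets. Barcodes shared between libraries were at most 0.498% of the smaller library.

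UMIs were summed per library and lineage marker, without clustering, and scaled to CPM. Exact Poisson 95% intervals were used for levels and exact conditional intervals for ratios. Calls used a pseudocount of 5 CPM, 10 CPM, 10 UMIs and 2-fold, and were tested on simulated data. A fold against 0 UMIs used 3 counts. No p-values were computed, since each tissue and stage is 1 library. Members reaching 10 CPM and 10 UMIs in a group of at least 50 barcodes were named, with pathway genes called alike in 2 or more tissues and 13 co-receptors, modifiers and targets. The members and lists were chosen with earlier results of these data known. Alternatives covered group definition, doublets, filters, pseudocount, minimum level, TMM scaling (edgeR 4.0.16, R 4.3.3) and totals without mitochondrial UMIs. Python 3.11.15, NumPy 2.4.6, SciPy 1.17.1, pandas 2.3.3, scikit-learn 1.9.0 and matplotlib 3.10.9 were used. Gene order came from RefSeq (ARS-UCD2.0), in which all 41 members were found, and its coordinates were used only to order genes by chromosome and start.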

Additional observations from a re-analysis of the deposited data

Results flagged for a closer look

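*DKK1* was measurable outside the 4 lineage groups. In the AD jejunum, 3188 kept barcodes had no UMI of any of the 5 lineage markers and so entered no comparison. Their summed counts gave 38.0 CPM of *DKK1* (34.4 to 41.8, from 412 UMIs in 249 barcodes), above the 27.8 CPM of the leukocyte group of that library and the 3.70 CPM (2.49 to 5.28) of the same kind of barcodes in the NB jejunum, whose 30 UMIs came from 4 barcodes. It was drawn out because a signal lay in data that the report did not use. The 1591 of these barcodes with a UMI of *CSF1R* or *CD14* had 80.1 CPM (71.9 to 89.0) and the 1597 without had 9.84 CPM (7.58 to 12.6). The macrophage gene *TIMD4* measured 788 CPM in the former and 98.1 CPM in the latter. Median depth was 2156 and 2635 UMIs. Whether the same cells lie in both groups was not tested.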

How the results depend on the processing

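No paired analysis was possible because each tissue and stage is 1 library. For the same reason no library could be left out of a stage comparison, and the tract orders rest on 1 library a tissue. Depth limited the small groups, such as the stroma of the reticulum, omasum and salivary gland and the endothelium of the omasum and AD colon. Settings named last in each group, with *CDH5* or *SOX10*, and the leads in single libraries without a *PECAM1* group were added after values had been seen. Of the counts of members called, those below moved by over 1.5 times, and the other 162 kept within it. In NB, endothelial leads went from 1 to 2 with a pseudocount of 1 CPM. In AD, epithelial leads went from 0 to 1 without the upper gene limit or without the minimum level. AD *PECAM1* leads went from 0 to 1 with doublets left in, without the minimum level, with TMM scaling, or with *PECAM1* groups under 100 CPM of *CDH5* left out. Epithelial NB-higher calls went from 3 to 10 when barcodes could carry other lineage markers, to 5 with doublets left in and to 6 without the minimum level. Leukocyte NB-higher calls went from 1 to 2 with other markers allowed or without the minimum level, and epithelial AD-higher calls from 0 to 1 with other markers allowed. With the low-*CDH5* groups left out, NB-higher *PECAM1* calls went from 6 to 0 and AD-higher ones from 2 to 1, because those pairs were no longer compared. The stromal lead of *FZD4* in AD reversed to a gap of -0.00027 (log2) with those groups left out, and that of *SFRP5* to -0.06 without *SOX10* barcodes (0.61 in NB), and the latter was 0.40 in AD under 10% mitochondrial UMIs. The *SFRP4* lead in NB fell short at 0.86 with other markers allowed. In jejunal *PECAM1* barcodes the NB excess of *FZD4* was 0.55 with other markers allowed, and that of *FZD1* and *FZD6* was 0.78 and 0.92 with doublets left in. Among the results outside the counts of members, 438 stayed the same, 42 moved and 2 reversed, and only some of those that moved are named here. The cause was not tested for the remaining changes.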
